A study of Mus musculus with 21 samples.

Results

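Forebrain neural stem cells were set against embryonic fibroblasts, 2 kinds of mouse cell whose RNA was hybridised to bead arrays. The neural stem cell group, called NS, was primary cells grown from mouse forebrain and served as the control neural stem cell of the series (3 arrays). The fibroblast group, called MEF, was mouse embryonic fibroblasts carrying a reporter of Oct4, named Oct4-GiP in one label and Oct4-GFP in another (4 arrays). Neither group is labelled with a treatment, and strain, age, sex, passage and medium are not given. These 7 arrays were taken by their state label from 21 arrays of 6 lines, and every probe with 1 gene symbol was considered (34885 of 45281 probes). The series is about direct conversion of fibroblasts to expandable neural stem cells, and it uses MEF as the reference for every other line. Embryonic stem cells, called ES (3 arrays), are used below only as a second line to set NS against. According to the series text, arrays of 1 line are technical replicates, so each p-value below measures the spread between hybridisations and not between cultures, animals or lines. Everything that differs between the NS line and the MEF line, its culture included, cannot be told apart from its cell type.

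Neural stem cells are self-renewing cells of the developing and adult nervous system that can give rise to neurons, astrocytes and oligodendrocytes. In culture they are kept dividing by epidermal and fibroblast growth factor, and are recognised by transcription factors of the SoxB and Olig families, by the intermediate filament nestin and by genes of radial glia. Fibroblasts are mesenchymal cells that build and remodel extracellular matrix, pull on it through actin stress fibres, and answer to TGF-beta, to serum and to inflammatory signals. Embryonic fibroblasts divide for a limited number of passages, during which inhibitors of cyclin-dependent kinases build up.

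Levels are log2 values of background-corrected and quantile-normalised bead signal, and differences are NS minus MEF on that scale with the standard error (SE) of the fit. A detection p-value below 0.01 marked a probe as well above background, or detected. That held for 15229 to 15578 probes on the NS arrays and for 14407 to 14936 on the MEF arrays, each probe read on a median of 43 or 44 beads. A gene is represented by its brightest probe, and the 10449 genes detected throughout at least 1 of the 6 lines were tested. Where all arrays of the dimmer side were at background, the fold is a lower limit, written "at least", against the dimmest probe detected on each of those arrays. Where only some of them were, their levels were raised to that floor if below it. A gene expressed in only 1 of the lines passed the detection filter through the side where it is high, so the counts within the gene lists describe the genes that passed and not all listed genes. Some 622 tested genes were at background on all 7 arrays and had passed through another line.

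The arrays fell on 2 slides. All NS arrays and MEF array 4 were on slide 4, and MEF arrays 1 to 3 were on slide 1. Across tested genes, NS arrays correlated with one another at 0.995 or more, MEF arrays at 0.993 or more, and NS with MEF arrays at 0.704 to 0.707. MEF array 4 differed from the mean of the other MEF arrays by a median of 0.12 (absolute log2 difference), and by over 2-fold for 71 genes. Each difference was therefore also taken on slide 4 alone, as the NS arrays against MEF array 4. In that fit all of the spread came from the 3 NS arrays (2 residual degrees of freedom), so a call could be lost there with little change in the difference.

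The labels were set against marker genes. Sox2, Fabp7 and Olig2 were detected on 3 of 3 NS arrays and 0 of 4 MEF arrays, while Nes and Slc1a3 were detected on all arrays of both. Sox1 and Pax6, also used as neural stem cell markers, were at background on every NS array. The fibroblast markers Thy1, Col1a1, Col1a2, Col3a1, Pdgfrb, Dcn and Lum were detected on 4 of 4 MEF arrays and 0 of 3 NS arrays. Pdgfra, which oligodendrocyte progenitors also use, was detected on all arrays of both. Of the neuronal markers, Tubb3, Dcx and Rbfox3 were at background on all NS arrays, and Syp was detected on all 3. Gfap, the filament protein of astrocytes, was well above background on 1 of 3 NS arrays, and Aqp4 and S100b on 0. Nanog was at background on all 7 arrays and Pou5f1, the gene read by the reporter, was detected on 1 NS and 1 MEF array. Of the other pluripotency markers, Zfp42 was at background on all 7, and Dppa5a was detected on 3 of 3 NS arrays and 0 of 4 MEF arrays, at mean levels of 5.51 and 4.92. Aif1, Ptprc, Cx3cr1, Pecam1, Cdh5, Kdr and Epcam were at background on all 7 arrays, Csf1r was detected on 3 of 4 MEF arrays and Cdh1 on 1.

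NS and MEF differed widely. By limma's treat test against a 2-fold change, 3553 of 10449 genes passed at a Benjamini-Hochberg adjusted p under 0.05, which is 34%. In NS, 1725 genes were higher (16.5%) and 1828 lower (17.5%), and 6896 did not pass. The median difference over all tested genes was 0.06 and the median absolute difference 0.80, beside a median SE of 0.097. On slide 4 alone, which shares the NS arrays and MEF array 4 with the full comparison, 3528 of the 3553 genes differed by over 2-fold in the same direction. Measured folds or lower limits of 16-fold or more were found for 115 genes that were higher and 296 that were lower, and of 100-fold or more for 10 and 52. Of the higher genes, 475 were detected on every NS array and no MEF array, and 686 of the lower genes on every MEF array and no NS array.

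**Figure D1:**
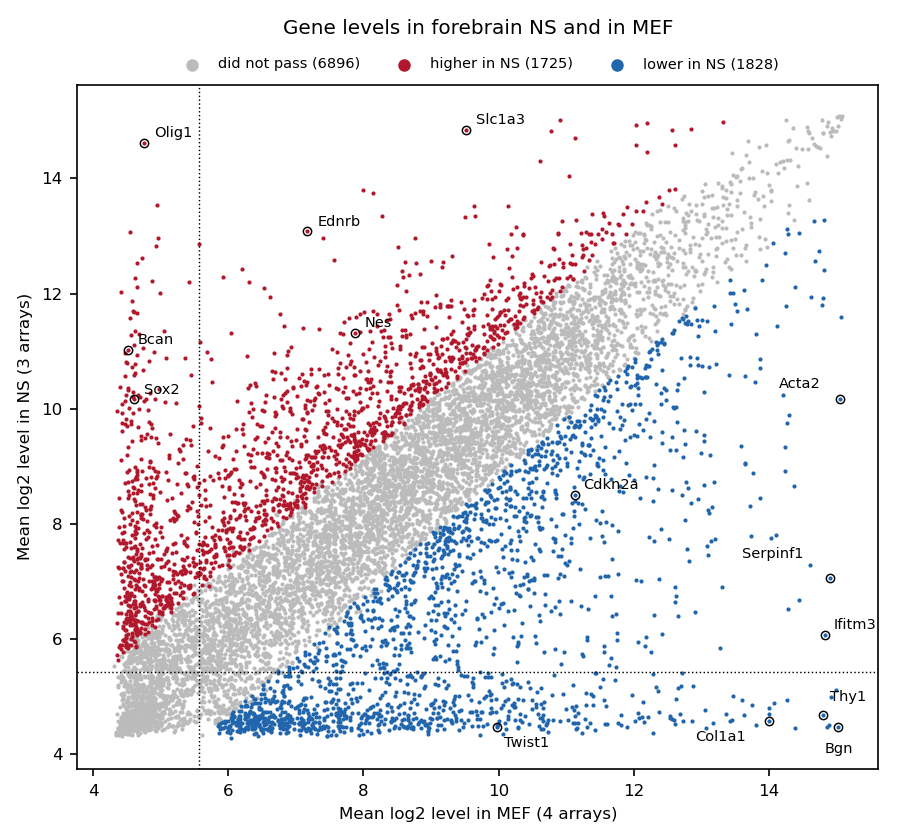
Each point is 1 of 10449 tested genes, with its mean log2 level over the 4 MEF arrays on the x axis and over the 3 NS arrays on the y axis. Red genes passed as higher and blue genes as lower in NS, grey genes did not pass, and dotted lines mark the mean level of the dimmest detected probe in each group. The lower right arm, bright in MEF and at background in NS, is longer and denser than the upper left arm.

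Among genes measured on all 7 arrays, Chst7, which encodes a sulfotransferase acting on proteoglycan chains, had the largest excess in NS. Its levels were 12.50, 12.39 and 12.39 on the NS arrays and 6.49, 6.12, 6.10 and 6.11 on the MEF arrays, a 74.5-fold difference (log2 6.22 ± 0.08 SE, limma adjusted p = 1.6e-21). Ednrb, the endothelin B receptor of neural progenitors and glia, stood at 13.10, 13.04 and 13.10 in NS and 7.22, 7.20, 7.13 and 7.11 in MEF, or 60.3-fold higher. The imprinted gene Mest was 59.4-fold higher, with its MEF arrays spread from 5.85 to 6.94 (log2 5.89, and 5.26 on slide 4 alone). Smoc1, a secreted calcium-binding protein, was 47.8-fold higher, and the histone genes H2ac12 and H2ac15 were 55.9-fold and 48.8-fold higher. Histone H2A genes are near-identical copies, so a probe can bind several of them.

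Ifitm3, an interferon-induced membrane protein that blocks virus entry, had the largest deficit in NS among genes measured throughout. It read 6.19, 5.78 and 6.26 on the NS arrays and 14.82, 14.80, 14.91 and 14.81 on the MEF arrays, so that it was 432-fold lower (log2 -8.76 ± 0.09 SE, limma adjusted p = 1.5e-22). Serpinf1, a secreted serpin that inhibits blood vessel growth, was 230-fold lower, the monocyte attractant Ccl7 217-fold, the neutrophil attractant Cxcl1 159-fold, the insulin-like growth factor binding protein gene Igfbp7 215-fold and the actin-associated Synpo 172-fold. The NS arrays stayed above background for all of these.

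Olig1, a transcription factor of the oligodendrocyte lineage, had the largest excess among genes at background in MEF. The NS arrays read 14.64, 14.61 and 14.62, near the top of the scale, and the MEF arrays 4.83, 4.73, 4.42 and 5.04, at least 532-fold apart (log2 9.87 ± 0.13 SE, limma adjusted p = 1.2e-21). Bcas1, a gene of young myelinating oligodendrocytes, was at least 183-fold higher. Rtn1, a reticulon of neuroendocrine cells, was at least 168-fold higher, Camk2b, a calmodulin-dependent kinase subunit, 153-fold, Slc25a18, a mitochondrial glutamate carrier, 133-fold and the nuclear pore gene Nup210 125-fold. Bgn, encoding the matrix proteoglycan biglycan, was the opposite case. Its MEF arrays read 14.99, 15.02, 15.12 and 14.98 and its NS arrays 4.30, 4.53 and 4.60, at least 779-fold apart (log2 -10.55 ± 0.15 SE, limma adjusted p = 2.8e-21). At least 762-fold, 723-fold, 710-fold, 696-fold and 666-fold lower were Ccn2, a YAP target, Saa3, an acute phase protein, Lox, the collagen crosslinking enzyme, Thbs2, a thrombospondin, and Thy1, a surface protein of fibroblasts and mature neurons.

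**Figure D2:**
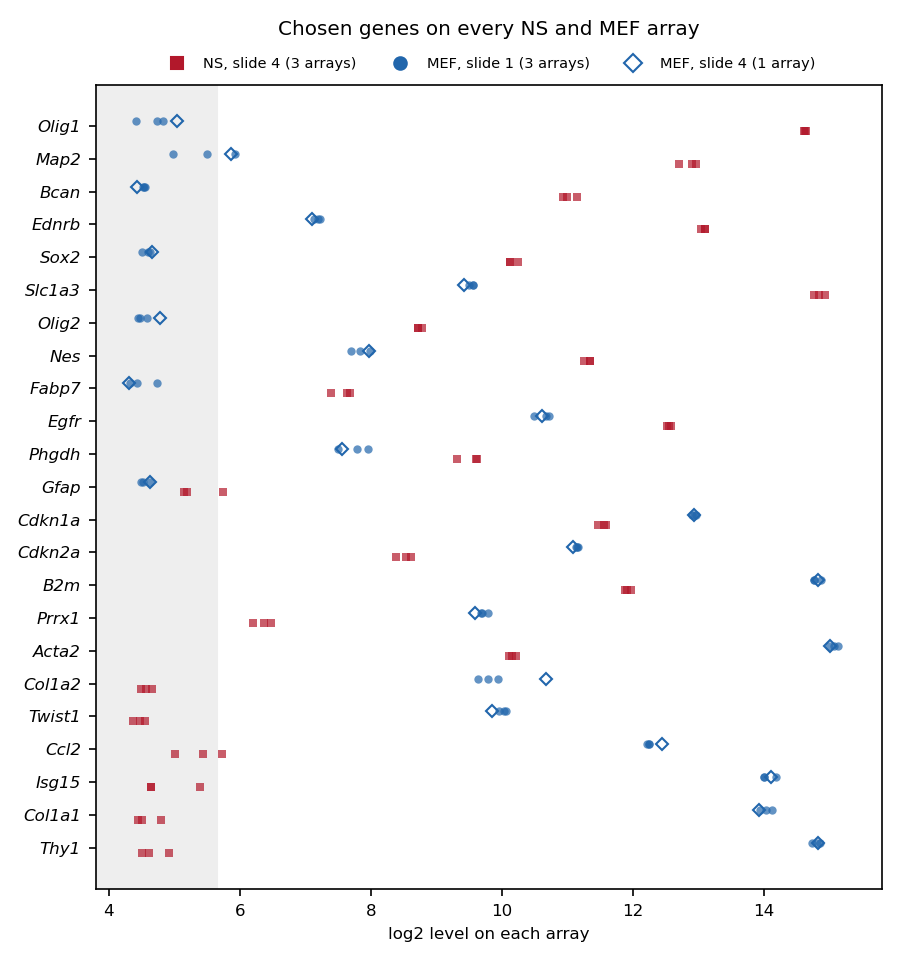
Log2 level of chosen genes on every array, with NS as red squares, the MEF arrays of slide 1 as filled blue circles and the MEF array of slide 4 as an open diamond. The grey band lies below the highest detection floor of the 7 arrays. For Olig1, Bcan, Sox2, Olig2 and Fabp7 the MEF points fall in the band, and for Thy1, Col1a1, Isg15, Twist1 and Col1a2 the NS points do, while MEF array 4 lies away from the other MEF arrays for Col1a2.

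Transcription factors of the nervous system were mostly higher in NS. Of 54 listed neural transcription factors, 35 passed the detection filter. Of these, 30 were higher in NS, 1 was lower and 4 did not pass, beside 16.5% higher and 17.5% lower over all tested genes. The median difference was 2.46, or 1.80 with lower limits in place of fitted values, beside 0.06 over all tested genes. On no MEF array were 17 of the 30 higher factors well above background. Sox2, which maintains neural and pluripotent stem cells, read 10.12, 10.24 and 10.13 in NS and 4.51, 4.64, 4.59 and 4.66 in MEF, at least 24.2-fold apart (log2 5.57 ± 0.08 SE, limma adjusted p = 4.5e-20). Sall3, a zinc finger factor, was at least 88.1-fold higher, Rfx4, a factor of the developing brain, 101-fold, and Sox21, which acts in progenitors beside Sox2, 87.0-fold, all with MEF at background. Olig2, the partner of Olig1, read 8.72, 8.72 and 8.78 in NS and 4.48, 4.44, 4.58 and 4.78 in MEF, at least 9.01-fold apart. Nfia, which starts gliogenesis, was detected on 3 MEF arrays and exceeded them in NS by at least 14.8-fold. The exception was Id4, an inhibitor of basic helix-loop-helix factors that is known from astrocytes and neural progenitors. It was at background in NS (4.74, 4.68 and 4.78) and at 8.46, 8.24, 7.98 and 8.70 in MEF, at least 7.58-fold lower.

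Genes of neural stem cells and radial glia numbered 31 tested of 37 listed, and 22 were higher in NS, 3 lower and 6 did not pass (median 3.11, or 2.52 with lower limits in place of fitted values). Slc1a3, the glutamate transporter of radial glia and astrocytes, stood at 14.84, 14.76 and 14.94 in NS and 9.56, 9.56, 9.50 and 9.42 in MEF, 40.4-fold higher in NS and yet clearly detected in fibroblasts. Nes, encoding nestin, read 11.35, 11.34 and 11.26 in NS and 7.99, 7.83, 7.69 and 7.98 in MEF. It was detected in both lines and 10.9-fold higher in NS (log2 3.44 ± 0.08 SE, limma adjusted p = 2.1e-16). Fabp7, the fatty acid binding protein of radial glia, was modest in NS at 7.64, 7.39 and 7.68, and at 4.74, 4.43, 4.33 and 4.31 in MEF, at least 4.0-fold apart. Egfr, the receptor for epidermal growth factor, was 3.81-fold higher in NS on its brightest probe, and as the mean of its tested probes it did not pass (log2 0.97). The 3 members that were lower were Tnc, encoding tenascin-C, a matrix protein of neural stem cell niches (11.2-fold), Gli3, the repressor of the hedgehog pathway (6.52-fold), and Fut4, whose product makes the stage-specific embryonic antigen on stem cells (at least 2.94-fold). Fut4 did not pass on slide 4 alone (log2 -1.63, limma adjusted p = 0.10) or with a slide term (adjusted p = 0.063). Tnc in MEF was near the top of the scale, at 15.05, 15.12, 15.05 and 15.05.

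Genes of the glial descendants were partly present. Of 18 tested astrocyte genes 10 were higher, 1 was lower and 7 did not pass (median 1.90, or 1.04 with lower limits). Acsbg1, an acyl-CoA synthetase of astrocytes, was at 10.51, 11.01 and 10.86 in NS and 4.58, 4.49, 4.49 and 4.43 in MEF, at least 37.4-fold higher. Aldoc, the glycolytic aldolase of astrocytes, was 40.5-fold higher. Gfap read 5.74, 5.15 and 5.19 in NS and 4.53, 4.49, 4.63 and 4.63 in MEF and did not pass (log2 0.79 ± 0.14 SE). Of 15 tested oligodendrocyte lineage genes 9 were higher, 2 were lower and 4 did not pass (median 1.82). Sox8, a factor of the same lineage, was at least 15.1-fold higher beside Olig1, Olig2 and Bcas1. The 2 lower genes were Pdgfra, the receptor of oligodendrocyte progenitors and of mesenchyme, at 7.49, 7.54 and 7.69 in NS and 12.81, 12.73, 12.84 and 12.75 in MEF (37.0-fold), and Mbp, the major myelin protein, which was at background in NS and at 6.89, 6.79, 6.84 and 6.65 in MEF (at least 2.59-fold).

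Neuronal cytoskeleton and vesicle genes were split, with 15 of 31 tested members higher in NS, 5 lower and 11 not passing (median 0.85). Map2, the dendritic microtubule protein, read 12.90, 12.96 and 12.70 in NS and 5.51, 4.98, 5.93 and 5.87 in MEF, at least 137-fold higher, 2 MEF arrays being above background. The brightest probe of Bex2, an adaptor of the brain-expressed X-linked family, was at least 251-fold higher, while another probe of it was detected in MEF. Bex4 of the same family was at least 39.8-fold higher. Lower in NS were Celf4, an RNA-binding protein of neurons (at least 5.32-fold), Stx1a, a synaptic syntaxin (2.93-fold), Stmn2, a stathmin of growing axons (at least 1.82-fold), and Dpysl3, a collapsin response mediator (2.77-fold). Dpysl3 did not pass on slide 4 alone (log2 -1.33), without NS array 2 (log2 -1.37) or without NS array 3 (log2 -1.40). Stmn2 did not pass with a slide term (log2 -1.40, limma adjusted p = 0.066). It also did not pass with normexp offset 50 (log2 -0.99) or without background correction (log2 -0.59).

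Mesenchymal transcription factors showed the reverse. Of 22 tested members of 45 listed, 16 were lower in NS, 2 higher and 4 did not pass (median -2.88). Twist2, a factor of dermal and skeletal mesenchyme, was at 13.84, 13.83, 13.84 and 13.71 in MEF and at background in NS (4.60, 4.64 and 4.29), at least 334-fold lower (log2 -9.29 ± 0.09 SE, limma adjusted p = 1.7e-23). Its relatives in repressing epithelial genes were also at background in NS, with Snai2 at least 39.5-fold and Twist1 at least 23.5-fold lower. Tbx3 was at least 19.3-fold lower, and Prrx1, a limb mesenchyme factor, was 10.1-fold lower and still detected in NS. The members higher in NS were Foxc1, a forkhead factor of mesenchyme and meninges (7.34-fold), and Zeb1, a repressor of epithelial genes that neural progenitors also express (3.26-fold).

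Hox genes encode homeobox factors that mark position along the trunk and are silent in the forebrain. Of 39 genes of the 4 clusters, 21 were tested, and 14 were lower in NS, 0 higher and 7 did not pass (median -2.97, or -2.29 with lower limits). All 14 were at background on every NS array. Hoxc6 read 12.60, 12.53, 12.60 and 12.51 in MEF and 4.45, 4.92 and 4.46 in NS, at least 141-fold lower (log2 -7.95 ± 0.16 SE, limma adjusted p = 1.0e-18). Hoxc9, Hoxb7 and Hoxd8 were lower by at least 37.8-fold, 36.2-fold and 13.3-fold.

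**Figure D3:**
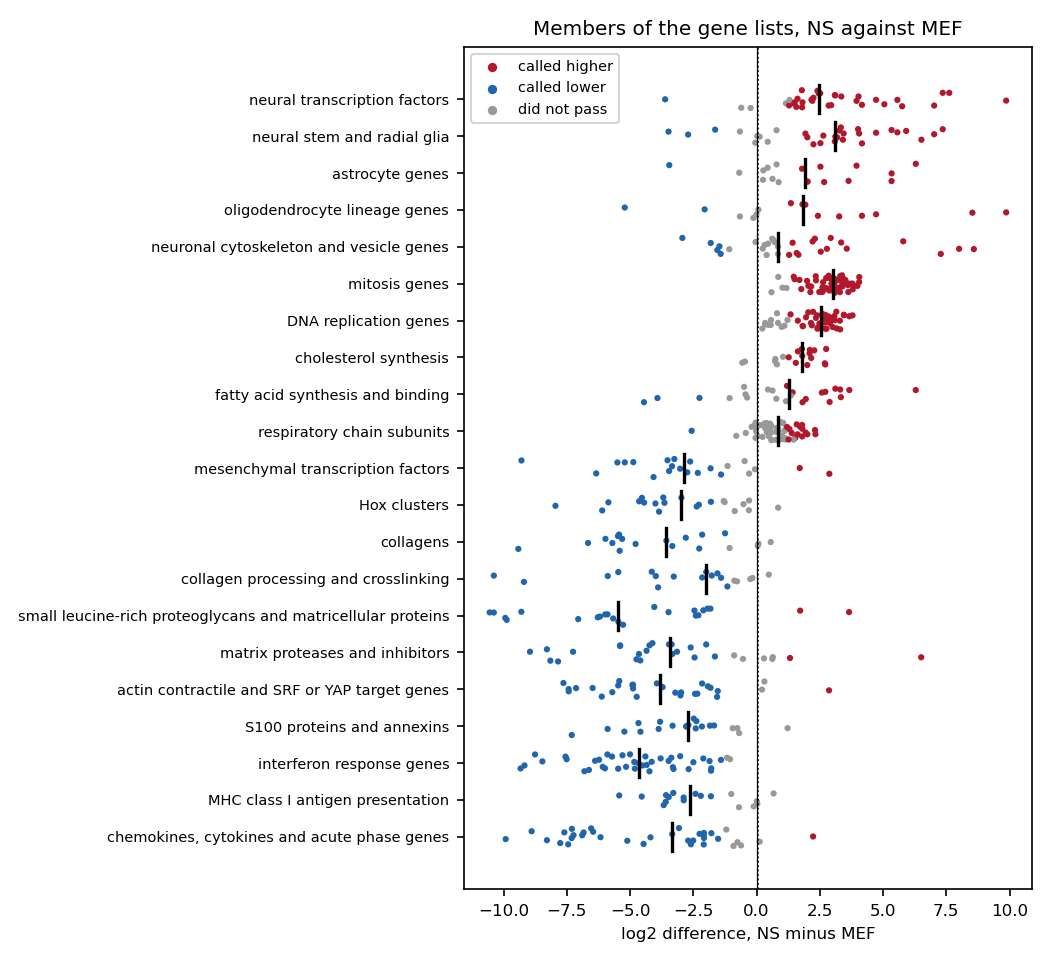
Log2 difference of NS minus MEF for the tested members of 21 gene lists, 1 point per gene, red where the gene passed as higher, blue where it passed as lower and grey where it did not pass. Black bars are list medians, the solid vertical line is 0 and the dotted line is the median of all tested genes. The neural, mitosis, replication and lipid lists lie to the right and the matrix, actin, interferon and chemokine lists to the left.

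Collagens are the fibres of the extracellular matrix. Of 19 tested collagen genes, 15 were lower in NS, 0 higher and 4 did not pass. Their median was -3.56, or -2.81 with lower limits, and -4.25 on slide 4 alone. Col1a1, a chain of the fibrillar collagen of skin and bone, was at 14.12, 14.02, 13.94 and 13.92 in MEF and 4.80, 4.51 and 4.44 in NS, at least 382-fold lower (log2 -9.42 ± 0.15 SE, limma adjusted p = 2.8e-20). Col1a2, its partner chain, was at 9.94, 9.63, 9.79 and 10.67 in MEF, with array 4 above the other MEF arrays, and at background in NS, at least 24-fold lower (log2 -5.43, and -6.10 on slide 4 alone). Col4a2, a basement membrane chain, was 62.8-fold lower and detected in both lines. Enzymes that process and crosslink collagen were lower in 14 of 19 tested cases, higher in 0 and did not pass in 5 (median -1.99). The crosslinking enzymes Lox and Loxl1 led that list, at least 710-fold and 382-fold lower, followed by the propeptidase enhancer Pcolce (59.0-fold) and the prolyl hydroxylase subunit P4ha2 (44.2-fold).

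Small leucine-rich proteoglycans and matricellular proteins, which decorate collagen and signal to cells, had the most negative median of all lists at -5.46. Of 23 tested members 21 were lower and 2 higher. Dcn, encoding decorin, was at 14.40, 14.33, 14.42 and 14.40 in MEF and 4.40, 4.50 and 4.47 in NS, at least 500-fold lower. The exceptions were Sparcl1, a matricellular protein that astrocytes secrete (at least 6.87-fold higher, 8.21, 8.29 and 8.54 in NS), and Eln, encoding elastin, which was dim in NS at 6.54, 6.22 and 6.22 and at background in MEF (at least 1.69-fold). Of 28 tested matrix proteases and inhibitors, 21 were lower in NS, 2 higher and 5 did not pass (median -3.41). The gelatinase Mmp2 was at 13.63, 13.62, 13.75 and 13.52 in MEF and at background in NS, at least 296-fold lower, and the collagenase Mmp13 and the stromelysin Mmp3 were lower by at least 199-fold and 158-fold. Timp4, a metalloprotease inhibitor, ran the other way, at 11.09, 11.12 and 11.14 in NS and at background in MEF, at least 46.8-fold higher. Adam12 was 2.50-fold higher over all arrays and did not pass on slide 4 alone (log2 1.23, limma adjusted p = 0.16).

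Brain proteoglycans showed no common direction, with 6 of 20 tested members higher, 5 lower and 9 not passing (median 0.05). Bcan, encoding brevican, read 11, 10.93 and 11.15 in NS and 4.53, 4.56, 4.53 and 4.43 in MEF, at least 44.0-fold higher. Cspg5 and Ncan, which encode neuroglycan C and neurocan, were higher by at least 42.7-fold and 13.6-fold. The hyaluronan receptor Cd44 was 22.9-fold lower, the glypicans Gpc3 and Gpc4 21-fold and 9.34-fold, and the syndecan Sdc1 at least 7.60-fold. Integrins and laminins, the cell's grip on matrix, were lower in 9 of 21 tested cases, higher in 2 and did not pass in 10. Their median was -1.22, or -0.69 with lower limits. Itga11, a collagen-binding integrin of fibroblasts, was at 13.50, 13.49, 13.42 and 13.26 in MEF and at background in NS, at least 255-fold lower. The fibronectin receptor subunit Itga5 was 8.63-fold lower. Lama5, a laminin chain, was 13.5-fold higher in NS, and so was Itga6, the laminin-binding integrin of neural stem cells, by at least 2.13-fold.

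Contractile genes and targets of the serum response factor and of YAP were lower in NS in 25 of 28 tested cases, higher in 1 and not passing in 2 (median -3.83). Acta2, the smooth muscle actin of contractile fibroblasts, was near the top of the scale in MEF at 15.12, 14.99, 15.06 and 15 and at 10.21, 10.12 and 10.16 in NS, 29.5-fold lower (log2 -4.88 ± 0.06 SE, limma adjusted p = 1.8e-21). Ankrd1, a YAP target, Tpm2, a tropomyosin, and Actg2, another smooth muscle actin, were lower by at least 124-fold, 88.9-fold and 83.9-fold, with NS at background. Mylk, the kinase that switches on smooth muscle and non-muscle myosin, was the exception at 10.75, 10.76 and 10.65 in NS and 7.82, 7.92, 7.80 and 7.88 in MEF, 7.28-fold higher. Of 21 tested S100, annexin and galectin genes, which bind calcium, membranes or sugars, 17 were lower, 0 higher and 4 did not pass (median -2.69). Lgals3, encoding galectin-3, was at least 154-fold lower and S100a6 59.2-fold.

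Signalling pathways were read by role. Notch receptors and targets keep neural progenitors undifferentiated. In that pathway 11 of 22 tested members were higher in NS, 3 lower and 8 did not pass. The median was 1.67, or 0.90 with lower limits. Among receptors, Notch1 read 10.43, 10.26 and 10.40 in NS and 6.98, 6.89, 6.80 and 7.14 in MEF (10.6-fold higher), and Notch3 was 6.18-fold higher. Among ligands, Dner, a Notch-binding protein of neurons and glia, was 19.7-fold higher, and Dlk1, a non-canonical ligand, was at background in NS and at least 7.90-fold lower. Among targets, Nrarp was at 10.78, 10.76 and 10.80 in NS and 4.48, 4.78, 4.67 and 4.55 in MEF (at least 37.0-fold higher), and Hey1, detected on 1 MEF array, was at least 23.4-fold higher. Numb and Numbl, which oppose Notch, were 2.32-fold and at least 4.10-fold lower. Numb, at a log2 difference of -1.21 over all arrays, did not pass on slide 4 alone (log2 -1.17, limma adjusted p = 0.31) or under array-median scaling (adjusted p = 0.39).

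The Wnt pathway had 6 of 33 tested members higher, 14 lower and 13 not passing, or 18.2% higher and 42.4% lower beside 16.5% and 17.5% over all tested genes (median -0.78, and -0.99 on slide 4). The ligands Wnt7b and Wnt7a and the receptors Fzd10 and Fzd9 were at background in MEF. Fzd10 read 10.88, 11 and 10.90 in NS and 4.67, 4.86, 4.62 and 4.45 in MEF, at least 41.1-fold higher, and Wnt7b, Fzd9 and Wnt7a were higher by at least 25.5-fold, 14.9-fold and 14.7-fold. The secreted inhibitors were high in MEF, with Dkk3 at 12.62, 12.38, 12.56 and 12.56 and at background in NS (at least 138-fold lower) and Sfrp1 at least 81.4-fold lower. Nkd2, an intracellular inhibitor, and Rspo3, a secreted activator, were lower by at least 26.2-fold and 6.35-fold.

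Members of the BMP and TGF-beta pathway were lower in NS in 20 of 35 tested cases, higher in 4 and did not pass in 11 (median -1.40). Inhba, a subunit of activin, was at 12.73, 12.52, 12.54 and 12.64 in MEF and at background in NS, at least 146-fold lower. The coreceptor Tgfbr3, the BMP antagonist Grem1 and the TGF-beta-induced matrix protein Tgfbi were lower by at least 94.1-fold, 72.1-fold and 52.5-fold. Bmp7, a ligand, was at 7.90, 7.86 and 7.80 in NS and at background in MEF, at least 4.87-fold higher. The activin receptor Acvr2b, the signal transducer Smad5 and the target Id2 were 3.92-fold, 3.40-fold and 3.98-fold higher. Of 15 tested hedgehog and cilium genes 12 did not pass, 2 were higher and 1 was lower. That is 20% called, beside 34% of all tested genes. Ptch1, both receptor and target of the pathway, was at 9.55, 9.48 and 9.43 in NS and 6.60, 6.38, 6.38 and 6.25 in MEF (8.48-fold higher), and the ligand Dhh was at least 2.73-fold higher.

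Growth factor receptors, ligands and feedback genes were divided, with 12 of 42 tested members higher, 18 lower and 12 not passing (median -0.37). That is 28.6% higher and 42.9% lower, beside 16.5% and 17.5% over all tested genes. Ntrk2, the receptor of brain-derived neurotrophic factor, read 11.68, 11.72 and 11.60 in NS and 4.66, 4.50, 4.78 and 4.65 in MEF, at least 68.6-fold higher. The binding protein Igfbp2 was 47.1-fold higher and the receptor Kit at least 4.84-fold. On the other side were mesenchymal ligands. Fgf7 was at 13.63, 13.33, 13.53 and 13.36 in MEF and at background in NS, at least 263-fold lower, and Fgf10 and Igf2 were lower by at least 52.1-fold and 67.5-fold. Flt1, a receptor of vascular endothelial growth factor, was at least 52.8-fold lower.

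Axon guidance genes had 10 of 37 tested members higher, 14 lower and 13 not passing (median -0.32). That is 27% higher and 37.8% lower, beside 16.5% and 17.5% over all tested genes. The repellents Slit3 and Slit2 and the ephrin Efna5 were at background in NS and at least 138-fold, 41.7-fold and 37.6-fold lower, with Slit3 at 12.50, 12.38, 12.59 and 12.66 in MEF. The semaphorin Sema6d was at 9.79, 9.72 and 9.85 in NS and at background in MEF (at least 18.6-fold higher), and the Eph receptors Epha5 and Ephb1 were higher by at least 6.01-fold and 4.72-fold. Of 36 tested ion channels, transmitter transporters and receptors, 12 were higher, 7 lower and 17 did not pass. Their median was 0.42, or 0 with lower limits. Kcnc1, a fast voltage-gated potassium channel, read 12.35, 12.22 and 12.28 in NS and 4.52, 4.44, 4.88 and 4.62 in MEF, at least 105-fold higher. The glutamate receptors Grm5 and Gria2 were higher by at least 32.2-fold and 26.2-fold and at background in MEF. Fibroblasts held other channel genes, with the potassium channel subunit Kcnab1 at 11.24, 11.31, 11.20 and 11.18 in MEF (at least 56.1-fold lower in NS) and the calcium channel Cacna1g at least 17.8-fold lower. Cadherins and adhesion molecules had 10 of 30 tested members higher, 7 lower and 13 not passing (median 0.55, or 0 with lower limits). Cdh4, encoding retinal cadherin, was at 12.51, 12.55 and 12.67 in NS and 7.55, 7.65, 7.55 and 7.48 in MEF, 32.3-fold higher, and the neurexin Nrxn2 at least 24.3-fold, while Vcam1 and Icam1, adhesion molecules for leukocytes, were 22.5-fold and at least 15.2-fold lower.

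**Figure D4:**
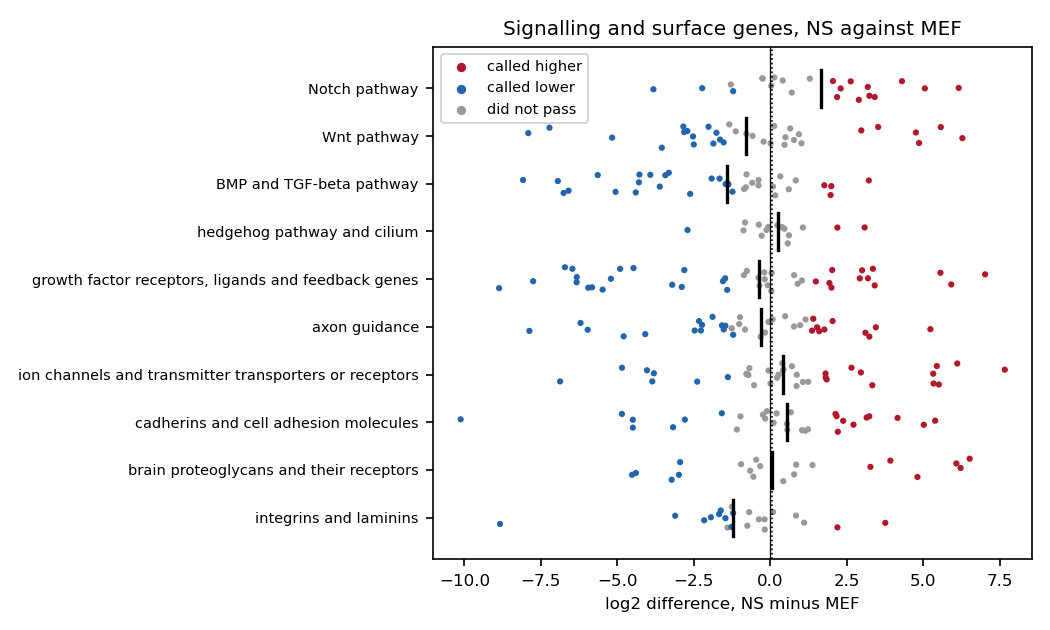
Log2 difference of NS minus MEF for the tested members of 10 lists of signalling and surface genes, 1 point per gene, coloured by whether the gene passed as higher (red), as lower (blue) or did not pass (grey). Black bars are list medians, the solid vertical line is 0 and the dotted line is the median of all tested genes. Most lists hold members far to both sides, and the Notch list lies to the right and the BMP and TGF-beta list to the left.

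Interferon response genes were lower in NS in nearly all tested cases. Interferons bind receptors that activate STAT factors, which switch on these genes through a promoter element with repeated GAAA. Of 51 listed genes 41 were tested, and 39 were lower in NS, 0 higher and 2 did not pass, beside 17.5% lower over all tested genes (median -4.67). Of the 39, 18 were at background on every NS array and the others were detected on at least 1. Isg15, a ubiquitin-like protein, was at 14, 14.01, 14.18 and 14.11 in MEF and 4.65, 5.40 and 4.65 in NS, at least 402-fold lower (log2 -9.17 ± 0.18 SE, limma adjusted p = 6.3e-19). Ifit3, which binds in a complex with other Ifit proteins, was at 14.30, 14.39, 14.25 and 14.12 in MEF and 4.66, 4.69 and 5.47 in NS, with 1 of 3 NS arrays above background, at least 450-fold lower. Usp18, the protease that removes Isg15 from its targets, was at least 265-fold lower. In ES, Isg15, Ifit3 and Usp18 had mean levels of 4.76, 4.95 and 4.51, and none of the 3 passed between NS and ES by the same test. Over the whole list, NS was higher than ES for 6 and lower for 7 of the 41 genes.

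The promoters of the called list members with the largest differences that hold an interferon-type element, GAAA and GAAA spaced by any 2 bases, are shown because this is the motif that interferon-activated factors are known to bind. The 250 bases before the RefSeq start are given (build GRCm38.p6), with matches on either strand, overlapping ones included, in capitals. Ifit3 holds 2 matches at chr19:34583279-34583528 on the plus strand, and Isg15 holds 3 overlapping matches at chr4:156200819-156201068 on the minus strand.
Ifit3: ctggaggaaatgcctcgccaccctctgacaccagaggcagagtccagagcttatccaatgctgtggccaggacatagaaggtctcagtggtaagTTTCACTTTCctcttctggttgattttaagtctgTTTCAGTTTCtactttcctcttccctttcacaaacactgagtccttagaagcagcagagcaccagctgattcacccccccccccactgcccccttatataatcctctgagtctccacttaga
Isg15: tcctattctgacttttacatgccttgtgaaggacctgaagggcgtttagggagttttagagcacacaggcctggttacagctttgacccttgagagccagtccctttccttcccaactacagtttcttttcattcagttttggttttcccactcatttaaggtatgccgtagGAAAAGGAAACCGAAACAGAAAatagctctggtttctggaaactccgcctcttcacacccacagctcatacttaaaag
Of the 41 tested list members 31 had such a window, and 13 of these (41.9%) held the motif, beside 3.46% of 27025 genes in the table and 3.19% of the 8424 tested genes with a window. A match describes letters and not binding.

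Genes of antigen presentation by MHC class I and inflammatory mediators were lower in NS more often than higher. Of 18 tested class I genes 12 were lower in NS, 0 higher and 6 did not pass (median -2.65). H2-D1, a classical heavy chain, was 43.1-fold lower (7.87, 7.42 and 7.85 in NS and 13.18, 13.14, 13.22 and 13.01 in MEF), with the reservation that its probe can bind related heavy chains. The light chain gene B2m read 11.88, 11.91 and 11.97 in NS and 14.76, 14.76, 14.86 and 14.82 in MEF, 7.37-fold lower. Nlrc5, the transactivator of these genes, and the peptide transporter subunit Tap1 were at background in NS, at least 11.5-fold and 7.16-fold lower. Of 35 tested chemokine, cytokine and acute phase genes 29 were lower, 1 was higher and 5 did not pass. Their median was -3.33, or -2.54 with lower limits. Ccl11 and the iron-binding Lcn2 were lower by at least 320-fold and 174-fold with NS at background. Ccl2, the monocyte attractant, was at 12.24, 12.25, 12.21 and 12.44 in MEF and 5.73, 5.44 and 5.01 in NS, with 1 NS array detected, at least 109-fold lower. Cx3cl1, the membrane-bound chemokine of neurons, was 4.70-fold higher in NS. Of the microglial and myeloid markers Aif1, Ptprc, Cx3cr1 and Csf1r, only Csf1r was detected, on 3 MEF arrays at a mean level of 5.68, and the summed level of the 4 markers was 6.89 to 6.92 on NS arrays and 6.91 to 7.21 on MEF arrays.

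Mitosis genes were higher in NS almost throughout. They encode the kinases, kinesins, condensins and centromere proteins that divide the chromosomes, and are transcribed in the second part of the cell cycle under factors that bind CCAAT boxes and cell cycle homology elements. Of 65 listed genes 56 were tested, and 52 were higher, 0 lower and 4 did not pass, beside 16.5% higher over all tested genes (median 3.03). Aurkb, the kinase of the chromosomal passenger complex, read 10.35, 10.50 and 10.50 in NS and 6.25, 6.29, 6.56 and 6.45 in MEF, 16.7-fold higher (log2 4.06 ± 0.08 SE, limma adjusted p = 1.8e-17). Ncapd2, a condensin subunit, was 16.6-fold higher, Cdca8, a partner of Aurkb, 14.1-fold, and Cenpm, a centromere protein, at least 12.5-fold. Against ES the same 56 genes had 0 higher and 3 lower in NS (median -0.18), where the same test called 16.6% of all genes higher and 15.2% lower.

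DNA replication genes behaved alike, with 40 of 51 tested members higher, 0 lower and 11 not passing (median 2.55). Mcm5, a subunit of the replicative helicase, was at 12.15, 12.14 and 12.16 in NS and 8.47, 8.47, 8.56 and 8.46 in MEF (12.7-fold higher). The thymidine kinase Tk1 was 13.8-fold higher, the single-strand binding subunit Rpa2 and the helicase cofactor Gins1 10.9-fold and 10.9-fold, and Uhrf1, which copies DNA methylation after replication, 9.80-fold. Against ES, 0 of the 51 were higher and 7 lower in NS, among them Mcm5 at a mean level of 13.30 in ES.

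Promoters of called members are shown for the 3 elements that cell cycle factors are known to use, again as the 250 bases before the start on GRCm38.p6. Capitals mark CCAAT in Ncapd2 (3 matches, chr6:125191587-125191836, minus strand) and in Cenpm (2 matches, chr15:82244337-82244586, minus strand). They mark TTTGAA in Top2a (2 matches, chr11:99024190-99024439, minus strand) and TTTCCCGC in Cdc6 (1 match, chr11:98907901-98908150, plus strand). Top2a encodes the topoisomerase that untangles chromosomes, and Cdc6 loads the replicative helicase.
Ncapd2: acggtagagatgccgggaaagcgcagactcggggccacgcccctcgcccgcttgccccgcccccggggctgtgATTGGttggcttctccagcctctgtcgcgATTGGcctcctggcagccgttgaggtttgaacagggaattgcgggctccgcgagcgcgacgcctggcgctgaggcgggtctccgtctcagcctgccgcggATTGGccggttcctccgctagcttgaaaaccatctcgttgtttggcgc
Cenpm: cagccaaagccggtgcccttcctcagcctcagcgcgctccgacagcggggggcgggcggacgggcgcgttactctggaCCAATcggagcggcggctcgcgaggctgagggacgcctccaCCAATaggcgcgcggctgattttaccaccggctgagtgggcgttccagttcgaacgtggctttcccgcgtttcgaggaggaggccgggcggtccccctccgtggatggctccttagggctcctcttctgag
Top2a: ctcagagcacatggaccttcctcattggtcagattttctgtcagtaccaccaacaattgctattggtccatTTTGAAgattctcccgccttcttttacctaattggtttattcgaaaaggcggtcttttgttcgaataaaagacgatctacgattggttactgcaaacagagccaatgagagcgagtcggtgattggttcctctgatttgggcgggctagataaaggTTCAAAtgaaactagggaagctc
Cdc6: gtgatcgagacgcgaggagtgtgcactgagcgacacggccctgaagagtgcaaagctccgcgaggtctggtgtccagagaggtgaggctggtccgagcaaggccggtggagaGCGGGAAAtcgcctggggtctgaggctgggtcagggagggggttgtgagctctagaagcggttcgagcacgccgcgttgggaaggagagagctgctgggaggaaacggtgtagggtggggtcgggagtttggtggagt
CCAAT was held on either strand by 32 of 48 mitosis windows (66.7%), beside 40.8% of tested genes with a window. TTTGAA was held by 17 of the same 48 (35.4%, beside 12.4%), and TTTCCCGC by 4 of 43 replication windows (9.30%, beside 1.98%). These counts include members that did not pass. Among called members alone, 29 of 45 windows held CCAAT, 14 of 45 TTTGAA and 2 of 34 TTTCCCGC. In the table as a whole the shares were 37.5%, 18.3% and 1.03% of genes. Each motif was counted on its own, and matches of different motifs can share bases.

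Inhibitors of cyclin-dependent kinases, D cyclins and p53 targets were mixed, with 9 of 37 tested members higher, 14 lower and 14 not passing (median -0.81). Cdkn2a, the locus of p16 and ARF that builds up in cultured fibroblasts, was at 8.54, 8.39 and 8.61 in NS and 11.13, 11.16, 11.14 and 11.08 in MEF, 6.14-fold lower (log2 -2.62 ± 0.07 SE, limma adjusted p = 2.5e-14). Cdkn1a, encoding p21, was bright in both at 11.59, 11.47 and 11.55 in NS and 12.96, 12.90, 12.93 and 12.94 in MEF, and 2.63-fold lower. Cdkn1c, encoding p57 from an imprinted locus, was 46.7-fold lower, and the death receptor Fas, a p53 target, 11.9-fold. In contrast Cdkn2c, encoding p18, read 11, 11.10 and 11.02 in NS and 7.71, 7.54, 7.54 and 7.35 in MEF, 11.4-fold higher. Cdkn3, a phosphatase that acts on these kinases, was 10.4-fold higher, and the activator genes E2f2 and Ccne2 were higher by at least 5.2-fold and 3.56-fold.

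Cholesterol is made from acetyl-CoA by a chain of enzymes that sterol-regulated factors control. Of 19 tested cholesterol synthesis genes 13 were higher, 0 lower and 6 did not pass (median 1.79). Dhcr7, the last enzyme of the pathway, was at 8.86, 8.63 and 8.47 in NS and 6.01, 5.88, 6.06 and 5.67 in MEF, 6.73-fold higher, and Nsdhl, Pmvk and the sterol carrier Stard4 were 6.49-fold, 4.86-fold and 6.57-fold higher. Against ES, 1 of the 19 was higher and 1 lower. The sterol element TCACNCCAC was found in 0 of 16 windows of this list, beside 1.25% of tested genes with a window. At so low a share, 16 windows are too few to tell whether the list differs from other genes. Of 24 tested genes of fatty acid synthesis and binding 12 were higher, 3 lower and 9 did not pass (median 1.28). Elovl6, an elongase, was 12.7-fold and Scd2, the stearoyl-CoA desaturase of brain, 9.88-fold higher. The muscle-type binding protein Fabp3 was at background in NS and at least 10.3-fold lower.

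Of 26 tested glycolysis and hypoxia genes 20 did not pass, 3 were higher and 3 lower, or 23.1% called beside 34% of all tested genes (median 0.38). The neuronal glucose transporter Slc2a3 was 16.9-fold higher, and Eno2, the enolase used as a marker of neurons, was 10.9-fold lower, at 6.79, 6.81 and 6.82 in NS and 10.20, 10.27, 10.37 and 10.20 in MEF. Of 22 tested genes of serine, glycine and one-carbon metabolism 9 were higher, 3 lower and 10 did not pass (median 1.20, and 0.71 on slide 4 alone). Gldc, which breaks down glycine, read 12.33, 12.29 and 12.27 in NS and 5.88, 6.33, 5.42 and 6.04 in MEF, at least 81.7-fold higher with 3 MEF arrays detected. The serine pathway enzymes Shmt1, Mthfd1 and Phgdh were 9.22-fold, 4.75-fold and 3.52-fold higher. Aldh1l2, the mitochondrial folate enzyme, was 4.12-fold lower. Of 61 tested respiratory chain subunits 45 did not pass, 15 were higher and 1 was lower (median 0.85). The share called was 26.2%, beside 34% of all tested genes. Higher were 24.6% and lower 1.64%, beside 16.5% and 17.5% over all tested genes. Ndufc2 of complex I was 5.02-fold higher. MEF array 4 stood above the other MEF arrays for Atp5a1 (7.80, 7.63, 7.83 and 8.88) and Ndufb5 (6.95, 7.13, 7.12 and 7.97), and Ndufb5 and Ndufb2 did not pass on slide 4 alone (log2 1.26 and 1.25, limma adjusted p = 0.19 and 0.099). Atp5a1 was 2.31 higher over all arrays and 1.46 higher on slide 4 alone (log2 differences). Of 30 tested NRF2 targets and antioxidant genes 18 did not pass, 5 were higher and 7 lower, or 16.7% and 23.3% beside 16.5% and 17.5% over all tested genes (median 0.09). The glutathione transferases Gstm1 and Gstm2 went opposite ways, at 6.81-fold higher and 76.4-fold lower, and the peroxidase Gpx3 and the thioredoxin inhibitor Txnip were 44.7-fold and 29.1-fold lower.

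Among chromatin regulators 12 of 39 tested genes were higher, 1 was lower and 26 did not pass (median 0.83). The share called was 33.3%, beside 34% of all tested genes. Higher were 30.8% and lower 2.56%, beside 16.5% and 17.5% over all tested genes. Hmgb2, a chromatin architecture protein of dividing cells, was at 11.67, 11.57 and 11.72 in NS and 6.80, 6.68, 6.64 and 6.94 in MEF, 29.6-fold higher. The nucleosome binder Hmgn2 and the Polycomb methyltransferase Ezh2 were 12.9-fold and 10.8-fold higher. Of 28 tested RNA-binding and splicing regulators 10 were higher, 4 lower and 14 did not pass (median 0.62), with Hnrnpa1 and Hnrnpa2b1 12.5-fold and 11.8-fold higher and Igf2bp1, an embryonic messenger RNA binder, at least 8.03-fold lower. Hmgn2 and Hnrnpa1 have many processed copies in the genome that a probe can also match.

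Imprinted genes, expressed from 1 parental copy, had 6 of 25 tested members higher, 13 lower and 6 not passing (median -1.33, and -1.01 on slide 4). Mest, Ppp1r9a (at least 39.7-fold), Nnat (at least 11.5-fold) and Nap1l5 (at least 9.28-fold) were higher. The growth regulator Grb10 was at 12.63, 12.66, 12.64 and 12.58 in MEF and at background in NS, at least 148-fold lower, and Igf2, Cdkn1c, Dcn and Dlk1 have been given above.

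Pluripotency genes mostly did not pass, at 22 of 29 tested, and 17 of the 29 were at background on all 7 arrays. Sox2 and the 5-methylcytosine oxidase Tet1 (at least 2.85-fold, 7.16, 6.88 and 7.19 in NS) were higher in NS, and 5 genes were lower, among them Klf4 at 5.86, 6.26 and 6.06 in NS and 9.18, 9.19, 9.26 and 9.61 in MEF (9.52-fold), Lefty1 (at least 11.1-fold) and Dnmt3l (at least 5.23-fold). Against ES, 27 of the 29 were lower in NS and 0 higher, and Sox2 was one that did not pass, with a difference of 0.16.

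Markers of other cell types were read for the whole lists. Fibroblast markers were lower in 20 of 21 tested cases, and the exception, Pi16, was dim in NS at 7.05, 7.01 and 6.65, at least 2.52-fold higher. The endothelial and pericyte list had 7 tested members, 2 higher (Notch3 and Emcn, the latter at 6.35, 6.43 and 6.50 in NS), 2 lower (Flt1 and Eng) and 3 not passing. The epithelial list had 2 of 13 tested members lower, Cdh3 (at least 16.2-fold) and Spint1 (at least 1.39-fold). That is 15.4% lower, close to the 17.5% over all tested genes, and 8 of the 13 were at background throughout. Spint1 did not pass on slide 4 alone (log2 -1.3), without NS array 2 (log2 -1.25), with normexp offset 50 or under array-median scaling. Only 3 of 18 genes of the myeloid and lymphoid list were tested. All 3 were lower, Laptm5 by at least 2.37-fold, Lyz2 by at least 1.77-fold and Cd14 by 2.73-fold. None of the 3 passed with normexp offset 50 or without background correction. Cd14 did not pass on slide 4 alone (log2 -1.41, limma adjusted p = 0.097) or without NS array 3 (log2 -1.35). Of 7 skeletal muscle and Schwann cell genes, Mef2c, a factor also used by neurons, was 7.23-fold higher and Egr2 at least 2.86-fold, and Pmp22 (5.53-fold), Acta1 (at least 13.6-fold) and Tnnt1 (at least 1.64-fold) were lower. Tnnt1 did not pass with normexp offset 50 (log2 -0.87) or without background correction (log2 -0.51). The part of cells of these other types in the differences was not tested.

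Sex-linked transcripts differed between the lines. Xist, the RNA of the inactive X, was at 10.71, 10.85 and 10.78 in NS and 9.11, 8.95, 8.92 and 9.14 in MEF (3.37-fold higher), and as the mean of its tested probes it did not pass (log2 1.08). The Y-linked Eif2s3y was detected on all 7 arrays, at 6.08, 6.06 and 6.14 in NS and 7.81, 7.55, 7.46 and 8.14 in MEF (3.13-fold lower), while Uty and Kdm5d were at background on all 7. Sex was not labelled, and its part in other differences was not tested.

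Slide and probe choice bear on the values above as follows. Taking NS against MEF array 4 alone moved the difference of a called gene by a median of 0.089. Olig1 and Bgn were then at 9.58 and -10.50. Of 3882 genes with more than 1 tested probe, 3071 had all probes on the same side of 0. Of 1372 called genes with several probes, 801 had every probe called the same way, and 7 genes had probes called in both directions, namely Adam15, Asph, Creb3, Dock1, H2ac20, Kif23 and Macroh2a1, which were picked out after their values were seen. Of the 258 genes chosen for naming 255 were called, and 33 of these did not pass when no background was removed, among them Fabp7, Id2, Itga6, Eln, Pi16, Dhh, Mbp, Tet1, Egr2, Ccne2, Stx1a and Eif2s3y.

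**Figure D5:**
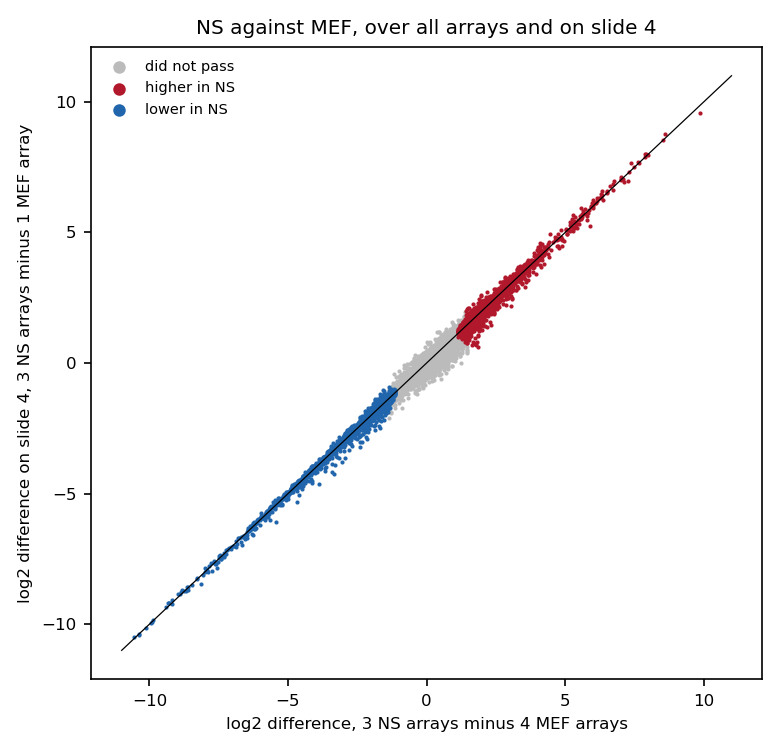
Log2 difference of each of 10449 genes over all arrays (x axis, 3 NS against 4 MEF arrays) and on slide 4 alone (y axis, 3 NS arrays against 1 MEF array), coloured by the result over all arrays. The diagonal marks equal values, and the 2 axes share the NS arrays and MEF array 4. Every red gene lies above 0 and every blue gene below 0 on the y axis.

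Against ES, NS differed in 3319 of the 10449 genes (31.8%), with 1731 higher (16.6%) and 1588 lower (15.2%). ES shared no slide with NS, and only another line of the series, with arrays on the slides of both, ties those slides together. With slide as a fixed block, 2851 genes were called between NS and ES. This comparison uses the same NS arrays as the one with MEF. Neural transcription factors were higher in NS than in ES in 29 of 35 cases and lower in 1 (median 2.79), and neural stem and radial glia genes in 24 of 31 and 0 (median 3.53). Olig1 was at a mean of 5.85 in ES, Slc1a3 at 6.33 and Ednrb at 4.60, so NS exceeded both other lines for these genes. Fibroblast-high genes were not alike in ES, as examples picked after their values were seen show. For 9 of them that were at background in NS, namely Bgn, Thbs2, Lox, Dcn, Col1a1, Twist2, Fgf7, Inhba and Slit3, mean levels in ES lay between 4.38 and 4.69 and none passed between NS and ES by the same test. Ccn2, Thy1, Loxl1, Mmp2, Dkk3, Sfrp1 and Grb10, also at background in NS, had mean levels in ES of 9.60, 7.56, 7.10, 8.25, 9.13, 10.91 and 11.79, and each was lower in NS than in ES. Collagens were higher in NS than in ES in 4 of 19 cases and lower in 3 (median -0.01), and contractile genes in 6 and 4 of 28 (median 0.03).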

How the data were processed

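Biotinylated cRNA was made from total RNA, per the labels' protocols, and read on Illumina MouseWG-6 V2 arrays, and the submitters' processing notes name GenomeStudio with no version. Per the file headers, the deposited scanner table holds, for every probe and array, a linear intensity (the average bead signal with background included) and a detection p-value. The bead number and bead error of each probe were deposited as other columns of the same table. A second table deposited by the authors holds scaled intensity values, each column a straight-line function of its scanner column (largest residual 0.115), with medians between 6.7 and 8.3; its background settings are unknown and it was used as an alternative.

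Here limma 3.58.1 in R 4.3.3 was used to correct background and normalise by quantiles (neqc, controls inferred from detection p-values, offset 16), giving log2 values. Probes with 1 symbol and a detection p under 0.01 on every array of at least 1 line were tested (15972 probes), the brightest standing for its gene (10449 genes). Of 45281 probes 34885 had 1 symbol, 18 several and 10378 none, and 34807 gene identifiers were matched to the reference annotation. One fit of all 21 arrays with 6 groups (15 residual degrees of freedom, median residual SD 0.127) was tested with treat against a 2-fold change, at a Benjamini-Hochberg adjusted p under 0.05 over all genes. Arrays of these genes were also simulated with independent noise of the fitted spread, and with no slide effect or background floor. There, 79 of 100 genes changed by a log2 of 1.5 and 100 of 100 changed by 3 were recovered, with 0 false calls. Unchanged genes were given no difference, so the 0 false calls do not cover slide or background effects. The number of arrays limits the precision.

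Groups followed the state label. The members and gene lists were chosen with earlier results of these data known, and a gene may be in several lists, which are described by counts and medians with no test. Every list count is to be read beside 16.5% higher and 17.5% lower over all tested genes. Named were, in each direction, the 6 largest differences measured on all arrays, the 6 largest lower limits among genes detected on every array of one line and on none of the other, up to 4 called members of each list, a fixed set of well-known genes, and all members of lists with 5 or fewer tested. Promoter windows of 250 bases came from RefSeq (GRCm38.p6). Plots were made in Python 3.11.15 (matplotlib 3.10.9). Alternatives covered the arrays fitted, slide, background, scaling, filter, probe rule, test and leaving out each array.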

Additional observations from a re-analysis of the deposited data

Results flagged for a closer look

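Among the 4 MEF arrays, 1 array stood apart from the other 3 for 20 of 258 named genes, the gap to the nearest array over the whole range being above Dixon's critical value for 4 arrays. Chance flags about 1 in 20 groups. The array was MEF 4, the only one on slide 4, for 9 genes, MEF 3 for 5, and MEF 1 and MEF 2 for 3 each. The ratios are given with the log2 level of the array and the range of the other MEF arrays. On MEF 4, Atp5a1 (ratio 0.847) read 8.88 against 7.63 to 7.83, Ccng2 (ratio 0.838) read 8.86 against 8.16 to 8.27, and Gli3 (ratio 0.852) read 11.37 against 11.62 to 11.67. Gpc4 (ratio 0.894) read 9.79 against 9.27 to 9.32, Igfbp7 (ratio 0.861) read 14.50 against 14.19 to 14.23, and Lgals3 (ratio 0.905) read 12.85 against 12.67 to 12.68. Loxl1 (ratio 0.849) read 13.87 against 14.02 to 14.05, Tpm2 (ratio 0.893) read 11.96 against 11.87 to 11.88, and Twist2 (ratio 0.924) read 13.71 against 13.83 to 13.84. On MEF 3, Ifitm3 (ratio 0.863) read 14.91 against 14.80 to 14.82, Igf2bp1 (ratio 0.974) read 8.70 against 8.33 to 8.34, and Mcm5 (ratio 0.876) read 8.56 against 8.46 to 8.47. Smad5 (ratio 0.884) read 8.21 against 8.46 to 8.49 and Uty (ratio 0.840) read 5.40 against 4.89 to 4.97. On MEF 1, Chst7 (ratio 0.943) read 6.49 against 6.10 to 6.12, Grem1 (ratio 0.874) read 11.73 against 11.53 to 11.56, and Nfia (ratio 0.843) read 5.39 against 5.79 to 5.87. On MEF 2, Gstm2 (ratio 0.855) read 12.79 against 12.59 to 12.62, Shmt1 (ratio 0.852) read 7.0 against 6.58 to 6.64, and Tnc (ratio 0.907) read 15.12 against 15.05 to 15.05.

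The largest gap in level was that of Atp5a1, where MEF 4 was brighter by over 1 log2 unit, and Atp5a1 was 2.31 higher in NS over all arrays and 1.46 on slide 4 alone. Uty was at background on all 4 MEF arrays and did not pass.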

How the results depend on the processing

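NS differed from MEF in 3553 genes (1725 higher, 1828 lower) and from ES in 3319. Without background correction, which compresses dim genes, these counts were 2216 (1035 higher, 1181 lower) and 1910. With eBayes against no change in place of the 2-fold threshold they were 8492 (4565 higher, 3927 lower) and 8437. Leaving out each array in turn gave 3431 to 3537 genes against MEF (1659 to 1728 higher, 1772 to 1809 lower) and 3225 to 3354 against ES. The other settings (7 arrays alone, slide as a fixed or random block, slide 4 alone, normexp with offset 50, median scaling, the authors' scaled table, other detection filters, mean of probes) gave 2911 to 3613 genes against MEF. No gene called in the reported analysis was called in the opposite direction under any of these settings. Median scaling put the median difference of all genes at 0.16, in place of 0.06, and 52.9% of calls higher, in place of 48.6%. Of the 258 named genes 255 were called, and of these 33 did not pass without background correction, 15 with offset 50, 11 with slide as a block, 11 on slide 4 alone, 7 with median scaling and 7 as the mean of probes; the cause was not tested. With offset 50 those included Itga6, Eln, Adam12, Egr2, Emcn and Eif2s3y. No paired analysis was run, because NS and MEF arrays are technical replicates of different lines and form no pairs. The fits of the 7 arrays and of slide 4 hold no ES array and gave no value against ES. The planned overlap of the MEF and ES calls is not given, since both use the NS arrays. Signal over background limits the folds of the 475 higher and 686 lower genes detected on no array of the dimmer line to lower limits. The same holds for other genes whose brightest probe was at background on some or all arrays of that line. On slide 4 the lone MEF array was assumed to vary like the 3 NS arrays, which gave all 2 residual degrees of freedom.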
